A study of Mus musculus with 6 samples.

Results

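*Nfe2l2*, which encodes the transcription factor Nrf2, and 6 genes of antioxidant and detoxifying enzymes, *Hmox1*, *Gclc*, *Gstm1*, *Prdx1*, *Ephx1* and *Cat*, were read in RNA-Seq of *db/db* mouse hearts. They were taken by gene name, and all 7 were found among the 4132 genes analysed here. The hearts came from male C57BLKS/J *db/db* mice, given by the labels as lepr-/-, which lack a functional leptin receptor and become obese and diabetic. The treated group received the FGF1 variant FGF1ΔHBS, whose heparin-binding site is mutated, at 0.5 mg/kg by intraperitoneal injection every other day, and the vehicle group received saline. Treatment began at an age of 10 weeks and lasted 16 weeks, the hearts were labelled with an age of 26 weeks, and each group held 3 mice. The study describes RNA-Seq for *db/db* hearts only, not for its lean *db/m* mice, so no value below is set against a non-diabetic heart. The deposited values are FPKM, in which the fragments counted for a gene are divided by its length and by the size of the library. This scaling is meant to make levels comparable between genes and between mice, and other scalings were run as alternatives.

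Nrf2 is a transcription factor that is held in the cytoplasm and degraded through Keap1. When oxidants or electrophiles modify Keap1, Nrf2 enters the nucleus, pairs with a small Maf protein and binds antioxidant response elements near genes that make glutathione, conjugate electrophiles, remove peroxides and break down haem. Its activity is set largely by the stability of the protein, so the level of its mRNA is not a measure of its activity. In the heart these enzymes limit damage by peroxides that arise from mitochondrial respiration and fatty acid oxidation.

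Antioxidant response elements carry the core TGACNNNGC, and it was searched on both strands in the RefSeq promoter windows of GRCm38.p6, which run from 250 bases before to 50 after a transcription start. Windows were matched by symbol for 5 of the 7 genes (6 windows), that is, for all but *Hmox1* and *Gclc*. The core was present in 2 of the 6 windows, those of *Nfe2l2* and *Prdx1*, and it occurs in 12.4% of the 32851 windows of all genes and in 15.2% of the 1992 windows of the genes tested for expression. The windows with the core are printed with the matched bases in capitals, together with that of *Mafk*, a partner of Nrf2, and the upstream window of *Gstm1*, the member with the highest mean over the 6 mice, in which these letters were not found.
Nfe2l2, chr2:75704614-75704913, minus strand: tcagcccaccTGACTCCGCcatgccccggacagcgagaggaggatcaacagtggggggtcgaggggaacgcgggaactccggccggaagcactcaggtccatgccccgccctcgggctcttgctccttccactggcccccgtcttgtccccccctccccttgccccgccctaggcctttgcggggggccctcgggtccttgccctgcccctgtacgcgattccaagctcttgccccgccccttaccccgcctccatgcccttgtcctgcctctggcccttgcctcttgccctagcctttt
Prdx1, chr4:116685349-116685648, plus strand: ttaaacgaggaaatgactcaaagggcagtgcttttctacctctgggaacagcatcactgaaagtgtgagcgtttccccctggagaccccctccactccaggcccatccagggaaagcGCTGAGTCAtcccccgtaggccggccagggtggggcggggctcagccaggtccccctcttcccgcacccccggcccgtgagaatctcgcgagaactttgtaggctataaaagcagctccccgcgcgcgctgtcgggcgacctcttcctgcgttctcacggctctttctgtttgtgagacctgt
Mafk, chr5:139791286-139791585, plus strand: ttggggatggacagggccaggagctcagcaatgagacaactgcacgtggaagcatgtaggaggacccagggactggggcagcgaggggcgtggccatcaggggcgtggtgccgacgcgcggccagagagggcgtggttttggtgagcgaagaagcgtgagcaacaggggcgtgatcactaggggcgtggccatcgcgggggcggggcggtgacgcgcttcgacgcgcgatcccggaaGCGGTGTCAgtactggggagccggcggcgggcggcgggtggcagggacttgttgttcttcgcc
Gstm1, chr3:108017924-108018223, minus strand: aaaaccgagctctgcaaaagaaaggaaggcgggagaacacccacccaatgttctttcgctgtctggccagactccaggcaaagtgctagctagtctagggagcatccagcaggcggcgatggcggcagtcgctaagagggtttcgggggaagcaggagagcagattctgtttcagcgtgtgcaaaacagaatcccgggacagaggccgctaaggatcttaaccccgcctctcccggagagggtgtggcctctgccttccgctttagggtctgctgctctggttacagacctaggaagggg
In *Nfe2l2* the match TGACTCCGC starts 240 bases before the transcription start, and in *Prdx1* the match lies on the opposite strand and reads TGACTCAGC there, between 133 and 125 bases before the start. The match in *Prdx1* also overlaps TGANTCA, the core bound by AP-1, which occurs in 7.81% of all windows and 4.92% of those of the genes tested. In *Mafk* the match lies on the opposite strand, between 13 and 5 bases before the start. Such a match is a description of the letters, and elements further from the start than these windows reach were not searched.

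The means of the 7 genes did not all differ in the same direction. *Nfe2l2*, *Hmox1* and *Cat* were lower in every FGF1ΔHBS-treated mouse than in every vehicle-treated mouse, *Gstm1* and *Prdx1* were higher in every treated mouse, and *Gclc* and *Ephx1* overlapped between the groups. The widest difference was that of *Hmox1*, whose mean was lower by 33.2% of the vehicle mean, and the next were those of *Nfe2l2* (lower by 19.3%) and *Gstm1* (higher by 15.3%). In bulk tissue a lower level may reflect fewer cells of a type or less RNA per cell, and these cannot be told apart. The log2(FPKM + 1) values of the 2041 genes whose mean reached 1 FPKM were fitted by limma with Benjamini-Hochberg adjustment. No member passed at 0.05 after adjustment, which 0.098% of all genes tested did, and 3 of the 7, *Hmox1*, *Nfe2l2* and *Gstm1*, passed the same value without adjustment, against 17.1% of all genes tested. By direction, 2 of the 7 were lower at this threshold, against 10.0% of all genes, and 1 was higher, against 7.1%. The groups did not overlap in 5 of the 7, against 24.3% of all genes tested. The median log2 fold change of the 7 was -0.05, beside -0.02 for all genes tested. FPKM values do not give the depth of a library, but the steps between the lowest values put the relative depths at up to 1.21 times that of vehicle replicate 1, with vehicle replicate 2 the deepest.

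**Figure D1:**
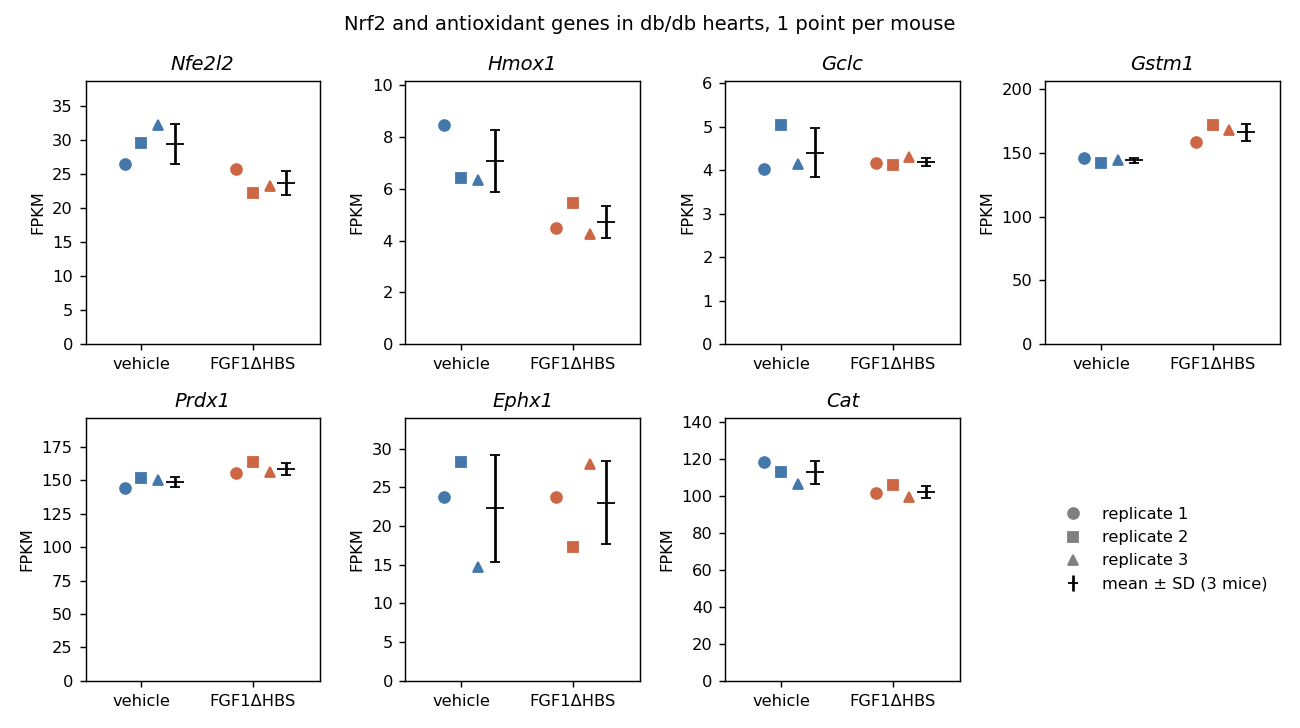
FPKM of the 7 genes in each of the 6 hearts, with the vehicle group in blue, the FGF1ΔHBS group in orange, a marker shape for each replicate number and black bars for the mean ± SD of 3 mice; every axis starts at 0. The treated mice lie below all vehicle mice for *Nfe2l2*, *Hmox1* and *Cat* and above them for *Gstm1* and *Prdx1*, and the groups overlap for *Gclc* and *Ephx1*.

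The levels of the 7 genes spanned a wide range in these hearts. By mean FPKM over the 6 mice, *Gstm1* (155 FPKM) and *Prdx1* (154 FPKM) ranked 73 and 74 among the 2041 genes tested, and *Cat* (108 FPKM) ranked 98. *Nfe2l2* (26.6 FPKM) and *Ephx1* (22.7 FPKM) followed at ranks 339 and 398, and *Hmox1* (5.90 FPKM) and *Gclc* (4.30 FPKM) were at ranks 1162 and 1344. The order of *Gstm1* and *Prdx1* was not the same in the 2 groups, since the ratio of *Gstm1* to *Prdx1* was above 1 in 1 of 3 vehicle-treated mice and in 3 of 3 treated mice. *Nfe2l2* and *Ephx1* also overlapped in level, and *Hmox1* and *Gclc* came close to each other only in the treated group, where the lowest *Hmox1* value (4.26 FPKM) was under the highest *Gclc* value (4.30 FPKM).

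**Figure D2:**
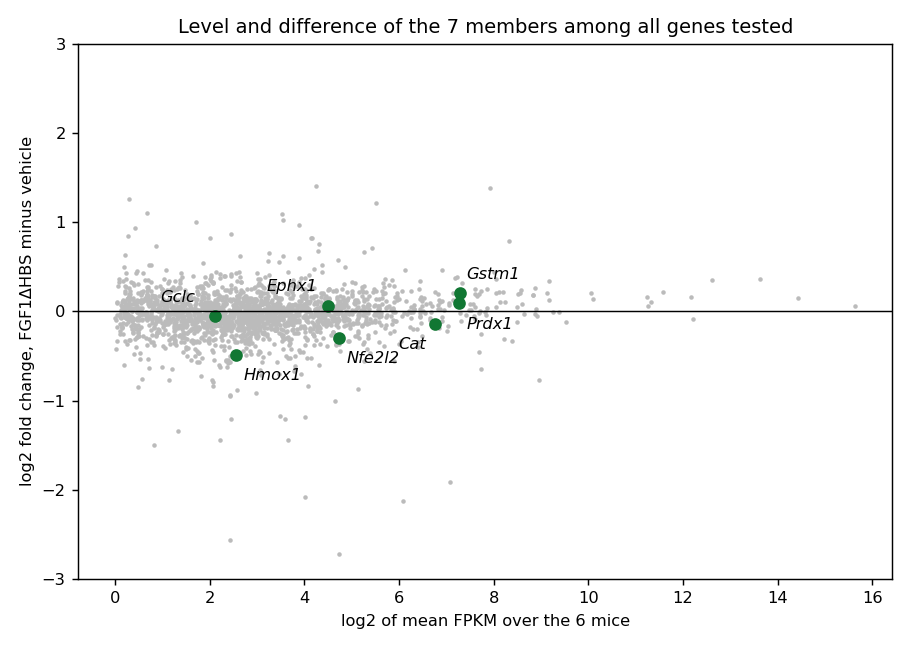
Each point is 1 of the 2041 genes tested, with the log2 of its mean FPKM over the 6 mice on the horizontal axis and its log2 fold change (FGF1ΔHBS minus vehicle, log2(FPKM + 1) scale) on the vertical axis, and the 7 genes are in green; 2 genes lie outside the axis limits of 3. The 7 genes lie within the cloud of all genes, *Hmox1* lowest at -0.49 and *Gstm1* highest at 0.20.

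*Nfe2l2* itself (ENSMUSG00000015839, chromosome 2 of GRCm38, 75675513 to 75704641, minus strand) stood at 26.5, 29.6 and 32.3 FPKM in the vehicle-treated mice, and at 25.7, 22.2 and 23.3 FPKM in the treated mice. Every treated mouse was thus below every vehicle-treated mouse, although vehicle replicate 1 and FGF1ΔHBS replicate 1 were close to each other. With vehicle the mean was 29.4 ± 2.91 FPKM (SD, n = 3), and with FGF1ΔHBS it was 23.8 ± 1.79 FPKM (SD, n = 3). The log2 fold change was -0.30 with a 95% confidence interval from -0.52 to -0.07, and the adjusted p-value by limma was 0.172 (unadjusted 0.0156). Its exact permutation p-value of 0.1 (two-sided) is the smallest that 3 mice against 3 allow, and it was the same for each gene here whose groups did not overlap. Without FGF1ΔHBS replicate 2, the lowest mouse, the unadjusted p-value of *Nfe2l2* was 0.0584 by limma.

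Of 90 other genes of the Nrf2 pathway that were listed, 14 were in the table analysed here, and 13 of them passed the filter. *Nqo1*, *Gclm*, *Txnrd1*, *Srxn1*, *Slc7a11*, *Gsta3* and *Sod2* were among those not in it. No listed gene of NADPH supply or superoxide removal was in it either, so counts over the 13 do not stand for the whole list. *Mafk* encodes a small Maf protein, the kind of partner with which Nrf2 binds DNA. Its level was 15.0, 19.0 and 17.6 FPKM with vehicle and 11.7, 9.81 and 11.04 FPKM with FGF1ΔHBS. All 3 treated mice were below all vehicle-treated mice, at a log2 fold change of -0.61 ± 0.108 (standard error), for which limma gave an unadjusted p-value of 0.000689 and an adjusted one of 0.116. With each mouse left out its log2 fold change lay between -0.70 and -0.54 and its adjusted p-value by limma between 0.0422 and 0.312. The lowest of these was that without vehicle replicate 3, a setting in which 82 genes passed an adjusted 0.05, against 0 to 7 with any other mouse left out. *Gsk3b* encodes a kinase that marks Nrf2 for degradation independently of Keap1, and it lay between 6.58 and 7.28 FPKM in all 6 mice, with a log2 fold change of -0.03 (95% confidence interval -0.21 to 0.15). Keap1 and the other 8 listed regulators were not analysed here.

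*Hmox1* encodes haem oxygenase 1 (HO-1), the inducible enzyme that splits haem into biliverdin, iron and carbon monoxide. It lies on chromosome 8 of GRCm38 (ENSMUSG00000005413, 75093621 to 75100589, plus strand). Its level was 8.46, 6.43 and 6.32 FPKM in the vehicle-treated mice and 4.49, 5.43 and 4.26 FPKM in the treated mice. The highest treated mouse, FGF1ΔHBS replicate 2, was still below the lowest vehicle-treated mouse, and vehicle replicate 1 was the highest of all. The log2 fold change was -0.49 with a 95% confidence interval from -0.80 to -0.18, and the unadjusted p-value of limma was 0.00745 (adjusted 0.137). With each mouse left out in turn, its unadjusted p-value by limma stayed under 0.05. *Hmox2*, the constitutive form of the enzyme, was listed at 31.3, 32.1 and 34.0 FPKM with vehicle and at 35.7, 31.7 and 35.7 FPKM with FGF1ΔHBS, with overlapping groups and a log2 fold change of 0.08 (95% confidence interval -0.09 to 0.25). The ratio of *Hmox2* to *Hmox1* within a heart, which does not depend on how the library was scaled, was 4.69 ± 0.879 (SD, n = 3) with vehicle and 7.39 ± 1.36 (SD, n = 3) with FGF1ΔHBS. It was 3.70, 4.99 and 5.37 in the vehicle-treated mice and 7.96, 5.83 and 8.37 in the treated mice. This ratio was chosen after the values were seen and rests largely on the difference of *Hmox1* given above.

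*Tfrc*, which encodes the transferrin receptor that takes up iron, was the listed gene with the widest difference. It was at 24.5, 24.8 and 16.7 FPKM with vehicle and at 15.2, 9.22 and 11.4 FPKM with FGF1ΔHBS. Its mean was lower by 45.8% in the treated group, without overlap, at a log2 fold change of -0.84 ± 0.205 (standard error), for which limma gave an unadjusted p-value of 0.00454 and an adjusted one of 0.116. Vehicle replicate 3 was the vehicle-treated mouse nearest to the treated group. Without it the log2 fold change was -1.02 and the adjusted p-value 0.0294 by limma, in the setting in which 82 genes passed. Without FGF1ΔHBS replicate 2, the lowest treated mouse, these were -0.68 and 0.353 by limma. Ferritin genes were not analysed here.

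In glutathione metabolism, *Gclc* encodes the catalytic subunit of glutamate-cysteine ligase, which makes the first bond of glutathione, and lies on chromosome 9 (ENSMUSG00000032350, 77754535 to 77794485, plus strand). *Gclc* was at 4.03, 5.04 and 4.15 FPKM in the vehicle-treated mice and 4.16, 4.12 and 4.30 FPKM in the treated mice. Vehicle replicate 2 was the highest of the 6 and the other 5 mice lay between 4.03 and 4.30 FPKM. The log2 fold change was -0.05 with a 95% confidence interval from -0.29 to 0.18 (adjusted p = 0.835 by limma), and without vehicle replicate 2 it was 0.03. The other subunit of the ligase and the remaining listed genes of glutathione synthesis were not analysed here.

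*Gstm1* encodes a mu-class glutathione S-transferase, which couples glutathione to electrophiles. It had the highest mean of the 7 genes over all 6 mice, though *Prdx1* was above it in the vehicle group, and was at 146, 142 and 144 FPKM in the vehicle-treated mice and 159, 172 and 168 FPKM in the treated mice. The vehicle-treated mice lay close together, with a coefficient of variation of 1.42%, and all 3 treated mice were above them. The means were 144 ± 2.05 FPKM (SD, n = 3) with vehicle, against 166 ± 6.72 FPKM (SD, n = 3), and the log2 fold change was 0.20 (95% confidence interval 0.06 to 0.35, adjusted p = 0.154 by limma, unadjusted 0.0119). Without FGF1ΔHBS replicate 2, the highest mouse, the unadjusted p-value was 0.0509 by limma, and with quantile normalization it was 0.0656. *Gstm1* lies on chromosome 3 of GRCm38 (ENSMUSG00000058135, 108012255 to 108017973, minus strand) in a family of closely related genes, so reads may have been divided between *Gstm1* and its relatives, and the values of the family are uncertain to that extent.

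Of the relatives of *Gstm1*, *Gstm5* was at 32.3, 30.1 and 26.9 FPKM with vehicle and 31.9, 35.7 and 37.2 FPKM with FGF1ΔHBS. Its groups overlapped through vehicle replicate 1, and limma gave an unadjusted p-value of 0.0439 (adjusted 0.278) at a log2 fold change of 0.23 ± 0.0924 (standard error). In 6 of the 15 alternatives run, the omission of vehicle replicate 3 among them (unadjusted p = 0.12 by limma), *Gstm5* was not under 0.05. *Gstm7* was at 23.9, 24.3 and 25.0 FPKM with vehicle and at 26.2, 29.3 and 25.4 FPKM with FGF1ΔHBS, without overlap, at a log2 fold change of 0.14 (95% confidence interval -0.04 to 0.31), which was 0.08 without FGF1ΔHBS replicate 2. *Gstm6* was under the filter, between 0.586 and 1.14 FPKM, and was not tested. The 3 mu-class genes tested were thus each higher in mean with FGF1ΔHBS, under every alternative run. Of the 21 transferases listed beside *Gstm1*, 6 were in the table, and *Gstm2*, *Gstm3* and *Gstm4* were not analysed here. The direction is therefore given for these 3 genes and not for the class, and every alternative rests on the same mice.

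Of the transferases of other classes that were analysed here, *Gsto1* and *Gstp2* had lower means in the treated group, also under every alternative run. *Gsto1*, of the omega class, was at 102, 101 and 89.2 FPKM with vehicle and 85.7, 80.0 and 75.8 FPKM with FGF1ΔHBS. The highest treated mouse was below the lowest vehicle-treated mouse, at a log2 fold change of -0.27 ± 0.0803 (standard error), with an unadjusted p-value of 0.0115 by limma (adjusted 0.154). *Gstp2*, of the pi class, was at 7.63, 6.77 and 10.2 FPKM with vehicle and 5.81, 5.97 and 6.44 FPKM with FGF1ΔHBS, also without overlap, at a log2 fold change of -0.36 (unadjusted p = 0.0348 and adjusted p = 0.252 by limma). Without vehicle replicate 3, the highest mouse, the log2 fold change of *Gstp2* was -0.21, and its unadjusted p-value was above 0.05 in 8 of the 15 alternatives run. *Gstt2*, of the theta class, varied widely, from 1.57 to 5.33 FPKM with vehicle and from 1.90 to 3.48 FPKM with FGF1ΔHBS.

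Peroxides are removed by peroxiredoxins, which use thioredoxin, and by catalase, which splits hydrogen peroxide in peroxisomes. *Prdx1*, a cytosolic peroxiredoxin on chromosome 4 (ENSMUSG00000028691, 116685544 to 116700822, plus strand), was at 144, 152 and 150 FPKM in the vehicle-treated mice and 155, 164 and 156 FPKM in the treated mice. The groups did not overlap, but the gap between vehicle replicate 2 and FGF1ΔHBS replicate 1 was smaller than the SD of either group, 3.95 FPKM with vehicle and 4.77 FPKM with FGF1ΔHBS. The log2 fold change was 0.09 with a 95% confidence interval from -0.05 to 0.23 (adjusted p = 0.489 by limma), and under quantile normalization it was 0.02. *Prdx4*, the peroxiredoxin of the endoplasmic reticulum, was at 12.5, 10.7 and 8.43 FPKM with vehicle and at 15.9, 13.1 and 14.7 FPKM with FGF1ΔHBS. Its mean was higher by 37.8%, without overlap, at a log2 fold change of 0.44 ± 0.142 (standard error), and limma gave an unadjusted p-value of 0.017 (adjusted 0.18). Without FGF1ΔHBS replicate 1, the highest mouse, the unadjusted p-value of *Prdx4* was 0.0643 by limma. *Txn2*, the mitochondrial thioredoxin, was between 112 and 119 FPKM over all 6 mice, with a log2 fold change of 0.03 (95% confidence interval -0.10 to 0.16).

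*Cat* encodes catalase and lies on chromosome 2 (ENSMUSG00000027187, 103453849 to 103485160, minus strand). Its level was 119, 113 and 107 FPKM in the vehicle-treated mice and 102, 106 and 99.8 FPKM in the treated mice. The treated mice were below all vehicle-treated mice, but vehicle replicate 3 and FGF1ΔHBS replicate 2 differed by less than 1 FPKM. With vehicle the mean was 113 ± 6.01 FPKM (SD, n = 3), against 102 ± 3.13 FPKM (SD, n = 3), and the log2 fold change was -0.14 with a 95% confidence interval from -0.29 to 0.02 (adjusted p = 0.343 by limma).

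*Ephx1* encodes microsomal epoxide hydrolase, which opens reactive epoxides, and lies on chromosome 1 (ENSMUSG00000038776, 180976210 to 181020904, minus strand). It was the most variable member, at 23.8, 28.3 and 14.8 FPKM in the vehicle-treated mice and at 23.7, 17.3 and 28.0 FPKM in the treated mice. The groups covered nearly the same range, with a mean of 22.3 ± 6.90 FPKM (SD, n = 3) for vehicle beside 23.0 ± 5.36 FPKM (SD, n = 3). The log2 fold change was 0.07 with a 95% confidence interval from -0.53 to 0.66, the widest interval of the 7 genes. Without vehicle replicate 3 the log2 fold change was -0.19, and without FGF1ΔHBS replicate 3 it was -0.08. In the annotation *Ephx1* shares exon bases with the pseudogene *Gm36961* on the same strand, and the reads of both cannot be told apart. *Ephx2*, the cytosolic epoxide hydrolase, was at 166, 123 and 120 FPKM with vehicle and at 150, 157 and 134 FPKM with FGF1ΔHBS, with overlap and a log2 fold change of 0.12 (95% confidence interval -0.19 to 0.44). *Nqo2*, a quinone reductase, was between 8.56 and 12.1 FPKM with vehicle and between 10.0 and 12.4 FPKM with FGF1ΔHBS (log2 fold change 0.13, 95% confidence interval -0.18 to 0.45).

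Counted over the 13 listed genes tested beside the members, 7 were higher and 6 lower in mean with FGF1ΔHBS. After adjustment none of them passed at 0.05 in limma. Without it, 2 passed as higher (*Prdx4* and *Gstm5*) and 4 as lower (*Mafk*, *Tfrc*, *Gsto1* and *Gstp2*), against 7.1% and 10.0% of all genes tested, and 7 did not pass. The groups did not overlap in 6 of the 13, against 24.3% of all genes tested. The median log2 fold change of the 13 was 0.03, beside -0.02 for all genes tested. The core TGACNNNGC was found in 3 of the 16 windows that 11 of these genes had, beside 15.2% of the windows of all genes tested, namely in *Mafk*, *Gstm5* and 1 window of *Gstm7*. The 5 genes with the core, members included, thus comprised *Nfe2l2* and *Mafk*, which were lower in mean with FGF1ΔHBS, and *Prdx1*, *Gstm5* and *Gstm7*, which were higher in mean.

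**Figure D3:**
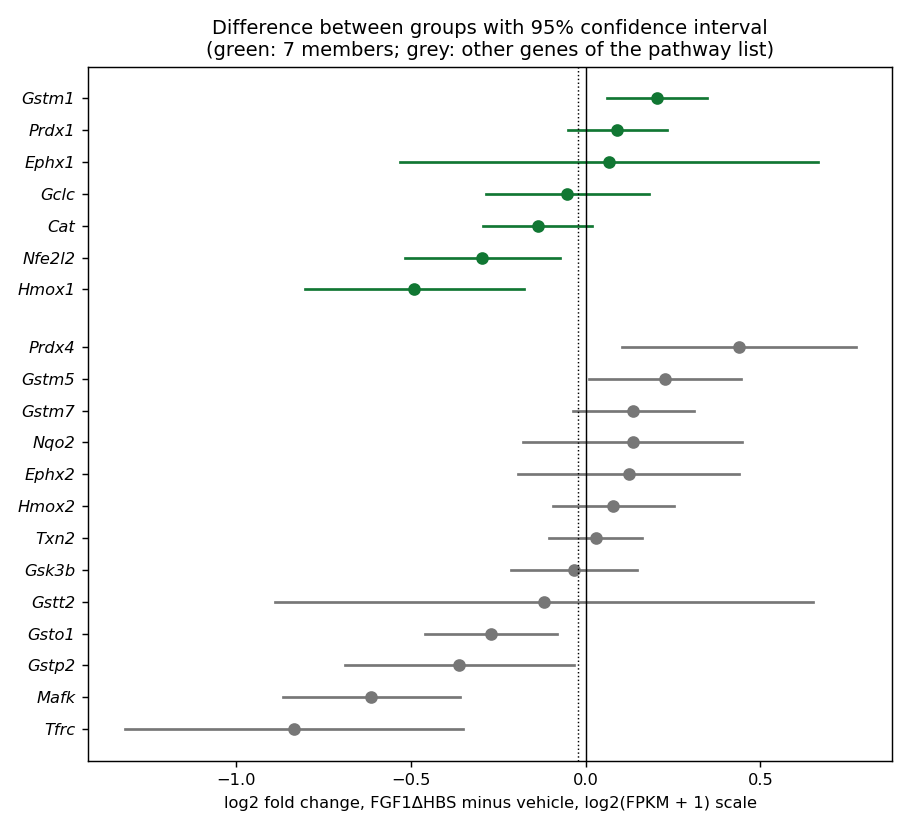
Log2 fold change (FGF1ΔHBS minus vehicle, log2(FPKM + 1) scale) of the 7 genes in green and of the 13 other pathway genes tested in grey, with lines for the 95% confidence interval of limma, a solid line at 0 and a dotted line at the median of all genes tested (-0.02). The intervals of *Hmox1*, *Nfe2l2*, *Mafk*, *Tfrc*, *Gsto1* and *Gstp2* lie below 0 and those of *Gstm1*, *Prdx4* and *Gstm5* above 0, before adjustment for the number of genes.

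Cell type markers were read beside the members. The heart muscle markers analysed here, *Tnnt2*, *Actc1* and *Atp2a2* (3 of 9 listed), had a summed level of 10739 to 12288 FPKM with vehicle and 11368 to 12708 FPKM with FGF1ΔHBS, and each of the 3 genes was among the 12 highest of the 2041 tested. The account of library preparation in the labels speaks of adipose tissue, whereas the fat cell marker *Adipoq* (1 of 6) was at most 0.217 FPKM with vehicle and from 0.246 to 1.21 FPKM with FGF1ΔHBS, without overlap. The fibroblast marker *Dcn* (1 of 6) was at 284, 288 and 154 FPKM with vehicle and at 409, 368 and 431 FPKM with FGF1ΔHBS. It was thus higher in each treated mouse, as were *Gstm1*, *Prdx1*, *Prdx4* and *Gstm7*, and as were 10.7% of all genes tested. FGF1ΔHBS replicate 2 was the lowest treated mouse for *Dcn* and *Prdx4* but the highest for *Gstm1*, *Prdx1* and *Gstm7*. The macrophage marker *Marco* (1 of 9) was at or under 0.0676 FPKM in all mice, and the other macrophage markers were not analysed here. The endothelial marker *Tie1* (1 of 6) was at 21.5, 23.1 and 11.6 FPKM with vehicle and at 15.4, 11.4 and 16.4 FPKM with FGF1ΔHBS, and the liver marker *Ahsg* (1 of 7) ranged from 1.49 to 11.9 FPKM over the 6 mice. Within each group *Dcn*, *Tie1*, *Ahsg* and *Ephx1* put the mice in the same order, with vehicle replicate 3 and FGF1ΔHBS replicate 2 lowest. This likeness was picked out after the values were seen. *Tnnt2*, *Actc1*, *Hbb-bt* and *Slc12a1* put the vehicle-treated mice in that order too, but the treated mice in other orders. The red cell marker *Hbb-bt* (1 of 5) was between 192 and 397 FPKM with vehicle and between 118 and 204 FPKM with FGF1ΔHBS, and the kidney marker *Slc12a1* (1 of 8) was at most 0.844 FPKM. The part of these markers in the values of the members was not tested.

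The genes whose values followed *Nfe2l2* and *Hmox1* most closely over the 6 mice were found by the root mean square difference of log2(FPKM + 1) after the mean of each gene was subtracted. For *Nfe2l2* they were *Rapgef1* (0.0403), *Ywhag* (0.0448) and *Trim72* (0.0473), each highest in vehicle replicate 3 and lowest in FGF1ΔHBS replicate 2, as *Nfe2l2* was. For *Hmox1* they were *Clasrp* (0.0674), *Acad12* (0.0867) and *Dhrs3* (0.114), each highest in vehicle replicate 1. The other members were further away, the nearest being *Cat* in both cases, at 0.165 from *Nfe2l2*, of which it was neighbour number 438, and at 0.206 from *Hmox1*, of which it was neighbour number 138. Between *Nfe2l2* and *Hmox1* the difference was 0.257.

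**Figure D4:**
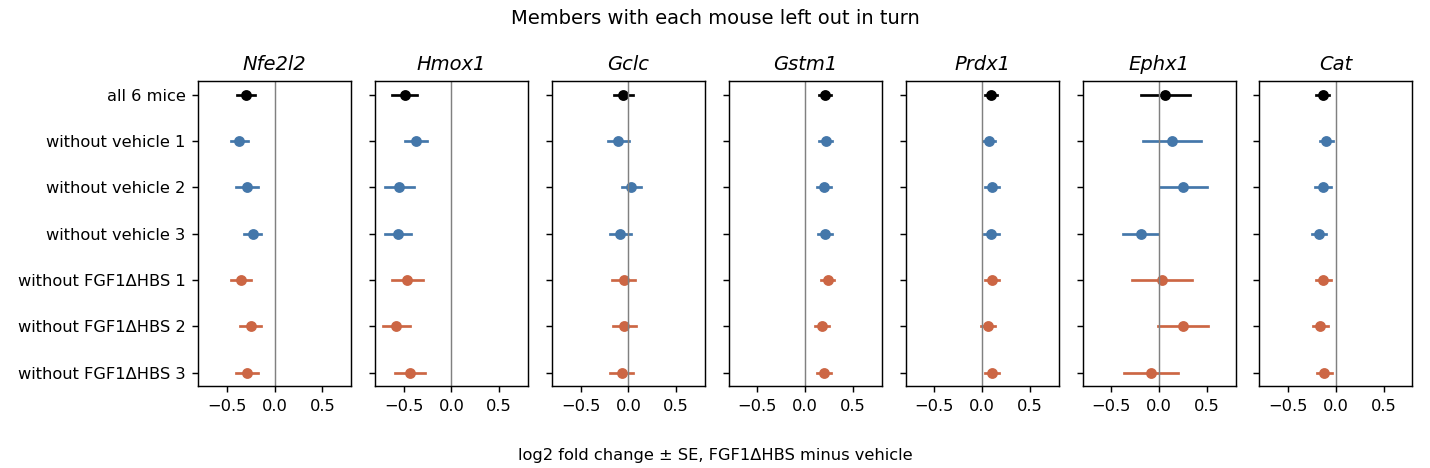
Log2 fold change of each of the 7 genes (FGF1ΔHBS minus vehicle, with lines for ± 1 standard error of limma) with all 6 mice in black, without each vehicle-treated mouse in blue and without each treated mouse in orange. *Hmox1* stays between -0.58 and -0.37, *Nfe2l2* between -0.37 and -0.23 and *Gstm1* between 0.18 and 0.24, whereas *Ephx1* moves between -0.19 and 0.26 and *Gclc* between -0.10 and 0.03.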

How the data were processed

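RNA-Seq was analysed for hearts of *db/db* mice given vehicle or FGF1ΔHBS, with 3 mice in each group as the study's methods give it. The p-values of limma therefore set a group difference against the spread between mice, with the variance of each gene moderated across genes by eBayes. FPKM values per gene and library were deposited by the authors, who trimmed their reads with Trimmomatic. Their processing notes list Bowtie 0.12.2, HISAT2 2.0, StringTie 1.3.0 and the build mm8, with no role or order, whereas the gene coordinates in the table fit GRCm38 and lay on the same chromosome as in GENCODE M21 for 4106 of 4132 genes. The study describes single-end reads and the labels paired-end libraries, and whether counting used strand is not given in the sources used here. The table ends partway through a gene, and genes beyond that point were not analysed here. The depth behind the FPKM values is unknown apart from the steps between low values, so no counting interval is given.

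FPKM values were used as deposited, on the log2(FPKM + 1) scale, for genes whose mean reached 1 FPKM. The pseudocount of 1 makes fold changes of low genes too small. The comparison was fitted without pairing by limma 3.58.1 (R 4.3.3, lmFit and eBayes with trend), p-values were adjusted by Benjamini-Hochberg over all genes tested, and an exact permutation test in scipy 1.17.1 (two-sided) was run for single genes. The fit was tested on simulated data. The members and the lists of pathway genes and markers were chosen with earlier results of these data known. The genes named are the members, the listed genes that had an unadjusted p-value under 0.05 or groups without overlap, and the 3 genes nearest in pattern to *Nfe2l2* and to *Hmox1*. *Gsk3b*, *Hmox2*, *Gstm6*, *Gstt2*, *Txn2*, *Ephx2* and *Nqo2* were named after their values were seen. Promoter sequences are those of RefSeq for GRCm38.p6. The alternatives run were a pseudocount of 0.1, all genes without a filter, a filter at 5 FPKM, scaling by median ratios, normalization by quantiles, eBayes without trend and robust eBayes, a block for the replicate number, the omission of each mouse and, added after the data were seen, a correction for GC content by loess (span 0.5).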

Additional observations from a re-analysis of the deposited data

How the results depend on the processing

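No member passed an adjusted p-value of 0.05 by limma under any of the alternatives run. *Nfe2l2*, *Hmox1*, *Gstm1*, *Prdx1* and *Cat* kept their direction in all 15, and the unadjusted p-value stayed under 0.05 in 15 of 15 for *Hmox1*, 14 for *Nfe2l2* and 13 for *Gstm1*. *Gclc*, which the filter at 5 FPKM removed, reversed under quantile normalization (0.0049) and without vehicle replicate 2 (0.029), and its range with each mouse left out was -0.10 to 0.029. *Ephx1* reversed without vehicle replicate 3 (-0.19) and without FGF1ΔHBS replicate 3 (-0.083), with a range up to 0.26. The members at an unadjusted p-value under 0.05, 3 with all mice, numbered 1 to 4 with each mouse left out, with 1 (*Hmox1*) without FGF1ΔHBS replicate 2. The other pathway genes at this threshold, 6 with all mice, numbered 4 to 6.

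With all mice, 2 genes passed the adjusted threshold. There were 4 at a pseudocount of 0.1, 5 under robust eBayes, and 1 each under median ratio scaling, quantile normalization, eBayes without trend and GC correction. Without a filter there were 0, beside 488 at an unadjusted p-value under 0.05. Leaving out each mouse gave 0 to 82 genes, 82 without vehicle replicate 3, and 231 to 494 without adjustment, beside 349 with all mice. The share of these 349 that were higher was 41.5%, whereas it was 50.3% of 366 after median ratio scaling, 51.0% after quantile normalization and 51.1% after GC correction. The cause was not tested, except that more genes were tested without a filter.

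Under a replicate block no gene passed (0 genes, 269 without adjustment), and the 7 members kept their side of the threshold. Deviations of mice that share a number correlated at -0.00783, -0.159 and -0.217, and the numbers were therefore not read as pairs. With 3 mice a group and an unknown depth, differences smaller than the spread between mice could not be seen. Some larger ones did not pass after adjustment either, such as that of *Gstm1*. Its means were 144 ± 2.05 FPKM (SD) with vehicle and 166 ± 6.72 FPKM (SD) with FGF1ΔHBS (adjusted p = 0.154 by limma).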
